A study of Mus musculus with 10 samples.

Results

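The genes described here are 10 actin and smooth muscle contractile genes, taken by gene name from a table of 29583 genes. Their names are Actb, Actg1, Acta2, Actg2, Tagln, Cnn1, Myh11, Myl9, Tpm1 and Vcl, and all 10 were found and passed the filter on low counts. The cells were MC3T3-E1, a mouse osteoblast precursor line from newborn C57BL/6 skull (subclone 14, a single clone), grown in standard medium with β-ecdysterone, a plant ecdysteroid. A source label names mesenchymal stem cells from bone marrow instead, whereas the titles and the protocol name MC3T3-E1. Each dose of 0, 100, 150 or 200 μM was sequenced in 1 library on day 5 and in 1 on day 10, so the 3 doses of a day stand as the replicates of treated cells and p-values measure only the spread between these libraries. A further 2 libraries, coded A-5 and B-4, were labelled untreated and carried no time. They entered no comparison except as a stated alternative, and those fits left day out.

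Actins are the building blocks of microfilaments. Actb and Actg1 encode the cytoplasmic β- and γ-actins found in nearly every cell, and Acta2 and Actg2 encode the α- and γ-actins typical of smooth muscle. Acta2 is also the usual marker of myofibroblasts and is expressed by many cultured mesenchymal cells, osteoblast precursors among them. Many of these genes are targets of serum response factor (SRF), which binds a DNA element called the CArG box, and of its cofactors myocardin (Myocd) and MRTF-A and MRTF-B (Mkl1 and Mkl2). The MRTFs bind free actin monomer and enter the nucleus when monomer is used up by filament assembly, so the genes are read as a record of the state of the cytoskeleton. In bulk RNA, fewer cells of a type and less RNA per cell cannot be told apart.

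A RefSeq window of 250 bases before the annotated start was matched by symbol for 6 of the 10 genes (Acta2, Actg1, Cnn1, Myl9, Tpm1 and Vcl, genome build GRCm38.p6). Both strands were searched for the CArG box. It was found in Actg1, Myl9 and Vcl, once each, and 482 of 32851 windows of this length (1.47%) held one. Counted from the annotated start, the box began at -90 in Actg1, at -161 in Myl9 and at -227 in Vcl. With 1 mismatch allowed, 18.6% of all windows held a match, and that of Acta2 held them at -84 and -34, that of Tpm1 at -80 and -221, and that of Myl9 a further one at -99. The 3 windows with a CArG box and that of Acta2 are printed 5′ to 3′ on the strand of the gene, because SRF is the factor that many of the 10 genes are known to depend on. Capitals mark the CArG box in the first 3 and the matches with 1 mismatch in Acta2. They lie at chr11:120348496-120348745 (minus strand), chr2:156775214-156775463 (plus), chr14:20929148-20929397 (plus) and chr19:34255374-34255623 (minus), in the order printed.
Actg1: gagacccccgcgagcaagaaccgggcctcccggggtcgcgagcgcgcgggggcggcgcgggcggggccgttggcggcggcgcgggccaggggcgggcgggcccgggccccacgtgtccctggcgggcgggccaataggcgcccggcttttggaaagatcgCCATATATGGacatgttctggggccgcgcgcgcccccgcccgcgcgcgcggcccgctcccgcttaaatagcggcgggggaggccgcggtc
Myl9: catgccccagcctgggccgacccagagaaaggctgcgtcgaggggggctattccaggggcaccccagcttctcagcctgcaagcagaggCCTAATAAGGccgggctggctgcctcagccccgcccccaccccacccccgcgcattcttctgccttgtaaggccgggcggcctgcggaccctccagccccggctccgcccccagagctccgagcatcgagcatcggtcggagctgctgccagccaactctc
Vcl: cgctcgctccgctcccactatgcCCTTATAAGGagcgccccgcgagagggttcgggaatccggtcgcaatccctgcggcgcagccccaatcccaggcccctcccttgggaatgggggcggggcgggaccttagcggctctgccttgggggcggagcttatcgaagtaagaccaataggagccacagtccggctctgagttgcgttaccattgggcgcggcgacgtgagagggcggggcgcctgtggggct
Acta2: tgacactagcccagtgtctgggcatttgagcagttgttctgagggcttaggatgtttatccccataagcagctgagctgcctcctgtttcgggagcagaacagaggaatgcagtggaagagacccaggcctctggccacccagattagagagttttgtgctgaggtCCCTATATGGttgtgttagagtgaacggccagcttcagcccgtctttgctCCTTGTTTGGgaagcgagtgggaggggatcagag

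The 10 libraries held between 27108562 and 58218009 counts. Where no read was counted, a true level of up to 3 counts, or 0.0501 to 0.117 CPM (counts scaled to the TMM-normalized library size), remains possible, by counting error only. Treated cells were compared with 0 μM by edgeR's quasi-likelihood test over 16794 genes with day as a covariate, and adjusted p-values are Benjamini-Hochberg values over all genes tested. Of the osteoblast markers, Col1a1 (type I collagen) was at 9398 ± 1893 CPM (SD, n = 6) in treated cells and at a mean of 9441 CPM at 0 μM, and Runx2 at 222 ± 29.3 and 91.8 CPM. Alkaline phosphatase (Alpl) had a mean of 0.0317 CPM at 0 μM and 42.9 ± 19.6 CPM (SD, n = 6) in treated cells. The untreated libraries A-5 and B-4 had 0.587 and 3.50 CPM of Alpl. The labelled cell type thus had its collagen and Runx2 in all conditions and one of its common enzymes mainly with treatment.

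Among the 10 genes, Actg2, Myh11 and Tpm1 rose with β-ecdysterone and Actb and Actg1 fell, while Acta2, Tagln, Myl9, Cnn1 and Vcl did not pass the test. The limits given in the paper (log2 fold change beyond 1 and adjusted p under 0.05) were applied to edgeR's test, since the paper names no test. At these limits 2 of 10 rose and 0 fell, against 13.4% and 5.98% of all genes tested. Myh11, 1 of the 2 and counted as higher in the shares below too, had only 5 and 8 counts at 0 μM. It does not pass a filter of 10 counts in every library. With the adjusted p alone, 3 rose and 2 fell, against 22.6% and 20.8% of all genes. The 10 genes therefore changed about as often as any gene did, and their median log2 fold change was 0.16 beside 0.05 over all genes. All 6 treated libraries lay above both 0 μM libraries for 3 of the 10 and below both for 2, against 26.3% and 26.4% of all genes tested. The genes differed in direction: both cytoplasmic actins were lower, Actg2 was higher on both days, and Acta2 lay above its single control library on day 5 and below it on day 10.

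**Figure D1:**
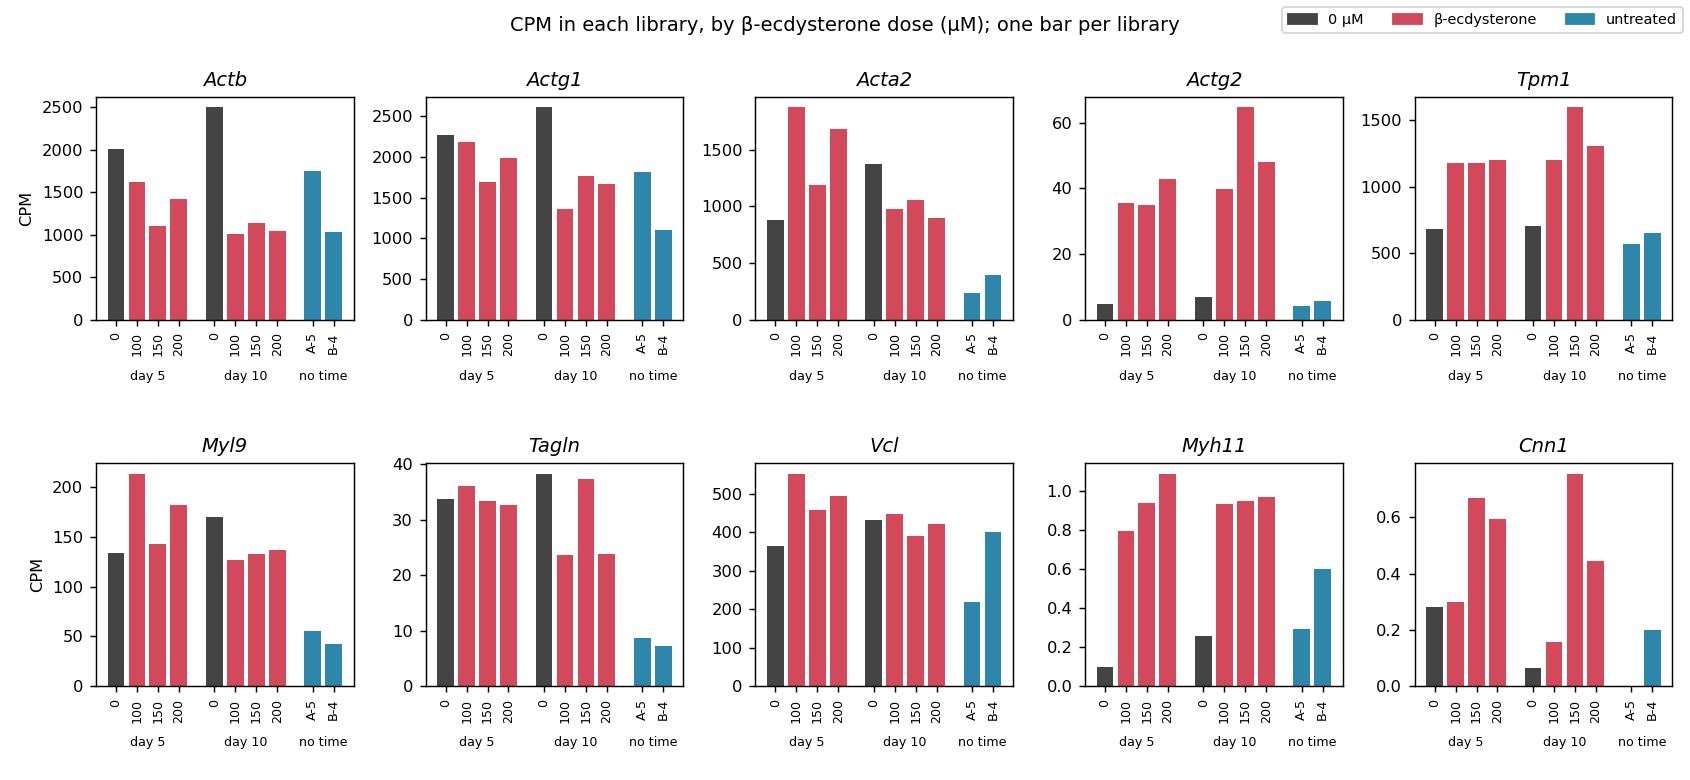
CPM (TMM-normalized) of the 10 genes, with 1 bar per library: the 0 μM and treated libraries of day 5, those of day 10, and the untreated libraries A-5 and B-4. Each panel has its own axis from 0. The treated bars stand above both 0 μM bars for Actg2, Tpm1 and Myh11 and below both for Actb and Actg1, and the untreated bars are the lowest of all for Acta2, Myl9, Tagln and Tpm1.

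Of the cytoplasmic actins, Actb (ENSMUSG00000029580, chromosome 5, 142903115 to 142906754, GRCm38) was at 2008 CPM at 0 μM on day 5 and 2498 CPM at 0 μM on day 10. With 100, 150 and 200 μM it was at 1614, 1106 and 1420 CPM on day 5 and at 1009, 1142 and 1041 CPM on day 10. All treated libraries lay below both 0 μM libraries, and the day 10 ones were the more uniform. Actb fell by 0.90 on the log2 scale (SE 0.17, edgeR adjusted p = 0.00249), to about 0.538 of the 0 μM level. Actb is widely used as a reference gene for normalization. Without the 0 μM library of day 10 the log2 change was -0.53 and missed the threshold (edgeR adjusted p = 0.0831), and with A-5 and B-4 as the controls it was -0.18 (adjusted p = 0.627).

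Actg1 (ENSMUSG00000062825, chromosome 11, 120345690 to 120348542) had 2265 and 2609 CPM at 0 μM on days 5 and 10. Its values with 100, 150 and 200 μM were 2181, 1696 and 1990 CPM on day 5 and 1357, 1764 and 1663 CPM on day 10. The groups did not overlap, but the 100 μM library of day 5 came close to its control, at a ratio of 0.963. Actg1 thus fell by 0.46 on the log2 scale (SE 0.15, edgeR adjusted p = 0.0349), and the adjusted p was over 0.05 in 11 of 19 alternatives. With A-5 and B-4 as the controls the value was 0.28 (adjusted p = 0.417). Of the 50-base stretches of the Actg1 transcript, 56.7% also occur in other annotated transcripts, mostly actin pseudogenes, so its level depends on how shared reads were counted, whereas for Actb the share was 14.2% and for Acta2 0.352%, and for Actg2 it was 0.

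Since both genes fell to different degrees, their ratio moved as well. In FPKM (counts scaled to transcript length and library size by the authors), Actb stood at 0.842 and 0.902 of Actg1 at 0 μM and at 0.594 to 0.721 in the 6 treated libraries. The untreated libraries had 0.929 and 0.892, on the side of 0 μM. The exact two-sided permutation test over 6 and 2 libraries, which took no account of day, gave p = 0.0714. That is the smallest value this split of libraries allows. Any measure whose groups do not overlap reaches it, so it adds nothing to the ranges.

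Acta2 (ENSMUSG00000035783, chromosome 19, 34241090 to 34255590), the smooth muscle α-actin, was the one actin whose treated libraries lay on opposite sides of their controls on the 2 days. On day 5 it had 884 CPM at 0 μM and 1876, 1190 and 1686 CPM with 100, 150 and 200 μM. On day 10 it had 1377 CPM at 0 μM and 974, 1057 and 899 CPM with the same doses. Every treated library was thus above its control on day 5 and below it on day 10. Over both days the log2 fold change was 0.11 (SE 0.27, edgeR adjusted p = 0.778), a mean of opposite values. On day 5 alone its log2 fold change was 0.86 (SE 0.24, edgeR adjusted p = 0.0318), and on day 10 it was -0.50 (SE 0.22, adjusted p = 0.124). Each of these values sets 3 treated libraries against 1 control library, which is assumed to vary as the treated ones do.

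Actg2 (ENSMUSG00000059430, chromosome 6, 83512905 to 83536265), the smooth muscle γ-actin of gut and bladder wall, had the largest log2 fold change of the 10 genes over both days, while on day 5 that of Myh11 was larger. It was at 4.81 and 7.04 CPM at 0 μM on days 5 and 10, from 241 and 222 counts. It reached 35.6, 34.8 and 43.0 CPM with 100, 150 and 200 μM on day 5 and 39.9, 64.7 and 47.9 CPM on day 10. The lowest treated library was far above the highest control, and the doses of a day were close to each other save 150 μM on day 10. The log2 fold change was 2.92 (SE 0.20, edgeR adjusted p = 6.15e-06), a 7.59-fold rise, and the adjusted p stayed under 0.05 in all 19 alternatives, with values between 2.57 and 3.15. The untreated libraries, with 4.21 and 5.76 CPM, were at the level of 0 μM.

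The makeup of the actin pool shifted accordingly. Of the summed FPKM of all 6 actin genes, Actb made up 37.6% and 37.0% at 0 μM and 26.2% to 28.7% in treated libraries. Acta2 made up 17.7% and 21.9% at 0 μM and 25.2% to 33.5% in treated libraries, and its share was higher with treatment on day 10 too, when its CPM was lower. Actg2 was 0.723% and 0.684% of the smooth muscle pair (Acta2 and Actg2) at 0 μM, 2.48%, 3.78% and 3.30% with 100, 150 and 200 μM on day 5, and 5.20%, 7.57% and 6.65% on day 10. It therefore remained a small part of the pair even where it had risen the most. The untreated libraries had 2.40% and 1.95%, above 0 μM, with Acta2 itself low in them. For the Acta2 share and the Actg2 share the same exact two-sided permutation test, again without regard to day, gave p = 0.0714. This is again the smallest value for this split and adds nothing to the ranges.

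**Figure D2:**
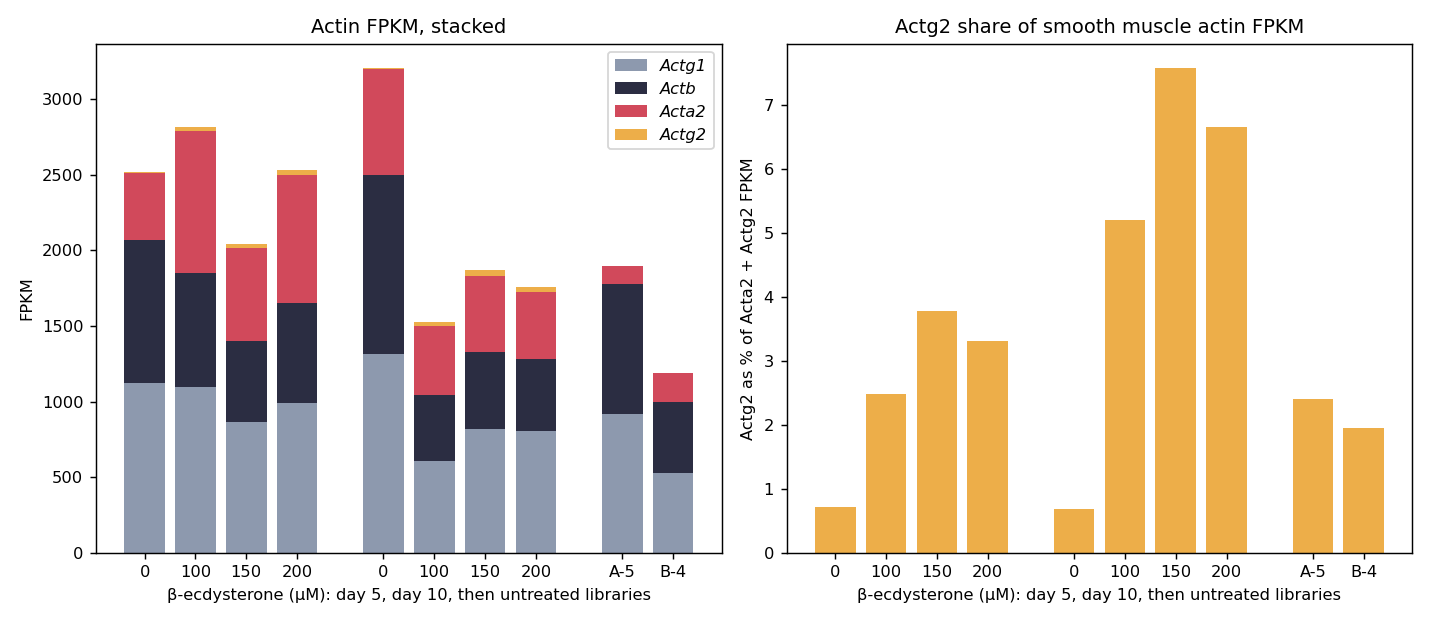
Left, FPKM of Actg1, Actb, Acta2 and Actg2 stacked for each of the 10 libraries. Right, Actg2 as a percentage of the FPKM of Acta2 and Actg2 together, between 0.684% and 0.723% at 0 μM and between 2.48% and 7.57% in treated libraries. Both axes start at 0, and each bar is 1 library.

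The striated muscle actins were near the detection limit. Acta1 (skeletal α-actin) was at 0.299 ± 0.114 CPM (SD, n = 6) in treated cells, with a log2 fold change of 0.75 (SE 0.56, edgeR adjusted p = 0.299). Actc1 (cardiac α-actin) was at 0.0592 ± 0.0736 CPM (SD, n = 6) and did not pass the filter.

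Tropomyosin, encoded by Tpm1 (ENSMUSG00000032366, chromosome 9, 67022590 to 67049406), lies along the actin filament and governs which proteins can bind it. Tpm1 had 683 and 708 CPM at 0 μM on days 5 and 10. With 100, 150 and 200 μM it had 1176, 1181 and 1199 CPM on day 5 and 1203, 1598 and 1306 CPM on day 10. The 3 day 5 values were nearly the same at all doses, all treated libraries lay above both controls, and the untreated libraries had 568 and 656 CPM. This was a log2 fold change of 0.88 (SE 0.12, edgeR adjusted p = 3.92e-04), a 1.85-fold rise with an adjusted p under 0.05 in all 19 alternatives. The other tropomyosin genes, named after their values were seen, went the other way. Tpm2 fell by 0.64 (SE 0.11, adjusted p = 0.00110), Tpm3 by 0.68 (SE 0.10, adjusted p = 4.99e-04) and Tpm4 by 0.96 (SE 0.11, adjusted p = 1.33e-04) on the log2 scale in edgeR's test. With A-5 and B-4 as the controls these 3 were not called, with log2 fold changes of -0.20, -0.21 and -0.06 (adjusted p = 0.478, 0.288 and 0.899).

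Myh11 (ENSMUSG00000018830, chromosome 16, 14194535 to 14291372), the smooth muscle myosin heavy chain and the most specific marker of mature smooth muscle, was present at trace level. It had 5 and 8 counts at 0 μM on days 5 and 10, or 0.0999 and 0.254 CPM. With 100, 150 and 200 μM it had 24, 56 and 33 counts on day 5 and 24, 50 and 50 counts on day 10, between 0.795 and 1.09 CPM. All treated libraries were above both controls, within a narrow range of their own. The log2 fold change was 2.50 (SE 0.42, edgeR adjusted p = 0.00111). It was 1.89 without the 0 μM library of day 5 and 3.21 without that of day 10. With A-5 and B-4 (0.294 and 0.600 CPM) as the controls it was 1.07 and not called (adjusted p = 0.0613).

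Cnn1 (ENSMUSG00000001349, chromosome 9, 22099216 to 22109630), calponin of smooth muscle, which binds actin and restrains myosin, was equally scarce and more erratic. It had 14 and 2 counts at 0 μM, 9, 40 and 18 counts with 100, 150 and 200 μM on day 5, and 4, 40 and 23 counts on day 10. The groups overlapped in CPM, since the 100 μM library of day 10 (0.155 CPM) lay under the 0 μM library of day 5 (0.280 CPM). The log2 fold change of 1.53 (SE 0.68) was not significant in edgeR's test (adjusted p = 0.0942), and no difference was detectable at this depth. Library A-5 had 0 counts of Cnn1, which allows up to 0.0979 CPM, and B-4 had 6 counts.

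Myl9 (ENSMUSG00000067818, chromosome 2, 156775420 to 156781658), a regulatory light chain of myosin whose phosphorylation starts contraction, followed Acta2. It was at 134 CPM at 0 μM on day 5 and at 213, 143 and 182 CPM with 100, 150 and 200 μM. On day 10 it was at 170 CPM at 0 μM and at 127, 132 and 137 CPM with the same doses. All 3 treated libraries were above the control on day 5 and below it on day 10, by small amounts. The log2 fold change over both days was 0.02 (SE 0.19, edgeR adjusted p = 0.952, 95% interval -0.40 to 0.43), and its sign turned with library totals in place of TMM.

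Tagln (ENSMUSG00000032085, chromosome 9, 45929619 to 45936058), transgelin or SM22α, binds actin and is an early marker of smooth muscle. It had 33.7 and 38.3 CPM at 0 μM on days 5 and 10. It had 36.0, 33.4 and 32.7 CPM with 100, 150 and 200 μM on day 5 and 23.7, 37.3 and 23.9 CPM on day 10. The groups overlapped, with only the 100 and 200 μM libraries of day 10 clearly below. In edgeR's test Tagln had a log2 fold change of -0.20 (SE 0.17, edgeR adjusted p = 0.368). Of its exonic bases, 62.4% overlap an antisense gene (Gm48529) and 5.43% the gene Pcsk7, and the strand setting of the counting is not given in the sources used here.

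Vcl (ENSMUSG00000021823, chromosome 14, 20929398 to 21033676) encodes vinculin, which links actin to integrin and cadherin junctions. It had 363 CPM at 0 μM on day 5 and 552, 457 and 494 CPM with 100, 150 and 200 μM. On day 10 it had 432 CPM at 0 μM and 447, 389 and 421 CPM. The day 5 treated libraries were all above their control and the day 10 ones lay on both sides. Over both days Vcl had a log2 fold change of 0.21 (SE 0.14, edgeR adjusted p = 0.235), and it was 0.48 on day 5 (adjusted p = 0.0567). The opposite-strand gene Ap3m1 covers 25.5% of its exonic bases.

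In FPKM, which allows levels of different genes to be compared, Actg1 was the highest of the 10 genes in all 10 libraries, from 528 to 1314 FPKM. At 0 μM the order after it on day 5 was Actb (945 FPKM), Acta2 (445), Tpm1 (310), Myl9 (106), Vcl (64.9), Tagln (19.0) and Actg2 (3.25), with Cnn1 (0.102) and Myh11 (0.0136) last. In treated cells of day 5, Acta2, Actb and Tpm1 followed with 802 ± 165, 652 ± 110 and 562 ± 13.1 FPKM (SD, n = 3), and the range of Actb overlapped those of both others, while every Acta2 value was above every Tpm1 value. On day 10, Tpm1 was second in all 3 treated libraries with 611 ± 94.6 FPKM (SD, n = 3), above every value of Actb (475 ± 34.4) and Acta2 (467 ± 32.3), which did not differ beyond their spread. Actg2 (29.2 ± 6.66 FPKM, SD, n = 6) moved above Tagln (17.2 ± 3.51), and their ranges of 23.9 to 41.3 and 12.4 to 20.1 FPKM did not overlap.

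Each day was then tested by itself, in a 4-group edgeR model over 17799 genes. Since each day had 1 library at 0 μM, the spread came from the 3 doses of each day and the lone control was assumed to vary likewise. On day 5, 4 of the 10 genes rose and 0 fell at an adjusted p under 0.05, against 12.0% and 10.7% of all genes. They were Actg2 (log2 fold change 2.99), Myh11 (3.21), Tpm1 (0.81) and Acta2 (0.86). On day 10, 3 rose and 2 fell, against 15.8% and 14.2% of all genes. Actg2 (2.85), Myh11 (1.89) and Tpm1 (0.95) rose, Actb fell by 1.23 (edgeR adjusted p = 0.00128) and Actg1 fell by 0.71 (adjusted p = 0.0176) on the log2 scale.

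The difference between the days was tested directly, as the day 10 log2 fold change minus that of day 5. None of the 10 genes passed edgeR's test, beside 0.0112% of all genes, and 4 of 10 had an unadjusted p under 0.05 (1464 of 17799 genes did). The value for Acta2 was -1.35 (SE 0.33, unadjusted p = 0.00229, edgeR adjusted p = 0.402), and DESeq2 gave it an adjusted p of 0.00511. Myl9 had -0.81 (SE 0.28, edgeR adjusted p = 0.524), Actb -0.71 (SE 0.29, adjusted p = 0.573) and Vcl -0.52 (SE 0.22, adjusted p = 0.578), while Actg2 (-0.13) and Tpm1 (0.14) had nearly equal changes on the 2 days. The 0 μM libraries themselves differed, with 884 CPM of Acta2 on day 5 and 1377 CPM on day 10, 1 library each.

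**Figure D3:**
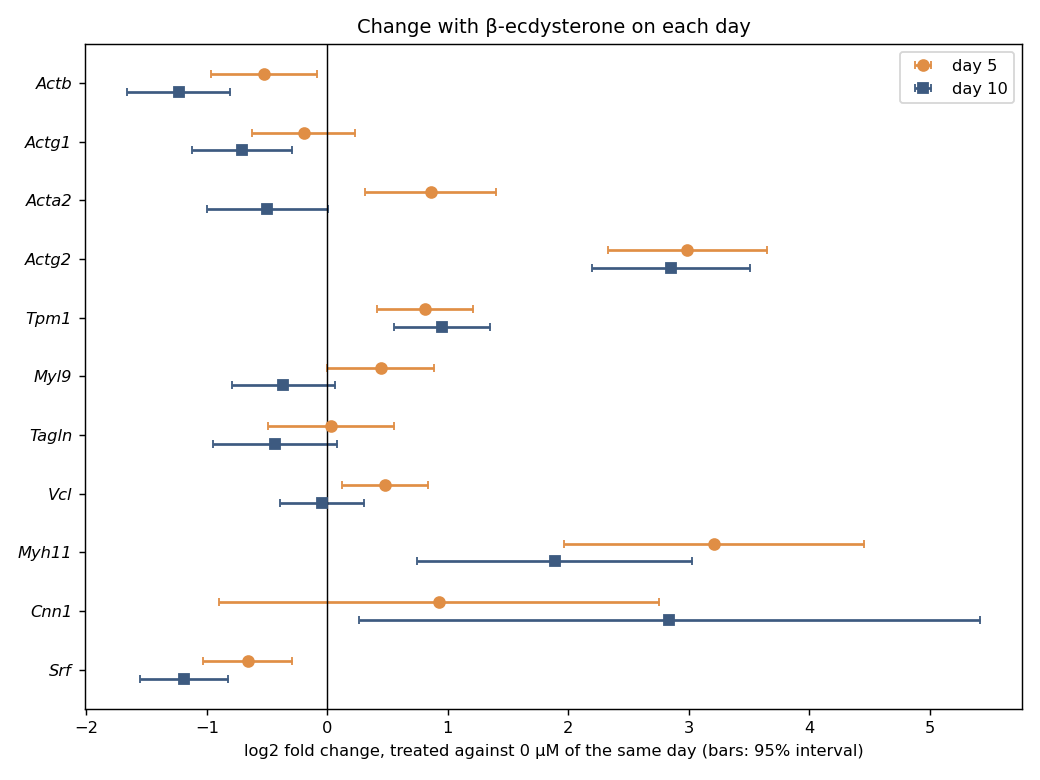
Log2 fold change of treated against 0 μM cells on day 5 (circles) and day 10 (squares) for the 10 genes and Srf, with the 95% interval of edgeR's 4-group model. Actg2, Myh11, Tpm1 and Cnn1 have their points to the right of 0 on both days, and Actb, Actg1 and Srf to the left on both. Points on opposite sides are those of Acta2 (0.86 and -0.50), Myl9 (0.44 and -0.37), Vcl (0.48 and -0.04) and Tagln (0.03 and -0.43).

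Day 10 was compared with day 5 among treated libraries, in the same edgeR model as used for the tests of each day. The 0 μM libraries did not enter the contrast itself, but they were part of the fit. None of the 10 genes was called by edgeR, against 1.76% of all genes higher and 0.657% lower at an adjusted p under 0.05, and 5 of 10 had an unadjusted p under 0.05 (3041 of 17799 genes did). Acta2 averaged 1584 ± 354 CPM (SD, n = 3) on day 5 and 976 ± 79.0 CPM (SD, n = 3) on day 10, a log2 difference of -0.70 (SE 0.16, edgeR adjusted p = 0.0604). The groups did not overlap. Without the 150 μM library of day 5, the lowest of its day, the value was -0.87 (edgeR adjusted p = 0.0147), and the adjusted p was also under 0.05 with library totals (0.0265) and DESeq2 (3.05e-04). Myl9 averaged 179 ± 35.5 and 132 ± 5.13 CPM (SD, n = 3 each), with a log2 difference of -0.44 (SE 0.14, edgeR adjusted p = 0.137). For Myl9 too the adjusted p was under 0.05 without that library (0.0311), with library totals (0.0461) and with DESeq2 (0.0328). For Actg2 the log2 difference was 0.43 (SE 0.17, adjusted p = 0.226), with the 150 and 200 μM libraries of day 10 above every treated library of day 5 and the 100 μM one within their range. With the 3 doses as pairs, a setting added with the data already seen, edgeR called none of the 10 genes either, with -0.68 for Acta2 (adjusted p = 0.0610), -0.42 for Myl9 (adjusted p = 0.0986) and 0.41 for Actg2 (adjusted p = 0.176).

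Dose was then tested from 100 to 200 μM. In edgeR's test of the trend within treated libraries 0 of 10 passed, against 0.006% of all 16664 genes, and 0 of 10 had an unadjusted p under 0.05 (391 genes did). The largest value was that of Cnn1, at 0.95 on the log2 scale per 100 μM (SE 0.73). For Actg2 the trend was 0.25 with a 95% interval from -0.21 to 0.71, and for Acta2 it was -0.15 with an interval from -0.62 to 0.32. Lower doses were not sequenced.

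The untreated libraries A-5 and B-4 stood apart from 0 μM for some of the genes. Acta2 was at 232 and 391 CPM in them, Myl9 at 55.1 and 42.2 CPM and Tagln at 8.71 and 7.30 CPM, each below all of the 8 other libraries, as was Tpm1 by a smaller margin. With them as the controls, edgeR gave treated cells a log2 fold change of 2.04 for Acta2 (adjusted p = 0.00641), 1.68 for Myl9 (adjusted p = 0.00254) and 1.96 for Tagln (adjusted p = 0.00151). These 3 genes, not called against 0 μM, were thus called higher against the untreated libraries, and Actb and Actg1 lost their call. Actg2 and Tpm1 kept theirs, with 3.15 and 1.06. The untreated libraries also differed from each other, with 1744 and 1030 CPM for Actb and 219 and 400 CPM for Vcl, and their time in culture is not stated. Time and the 0 μM condition therefore cannot be told apart in them.

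Srf itself fell. It was at 112 and 123 CPM at 0 μM on days 5 and 10, at 74.8, 58.2 and 78.0 CPM with 100, 150 and 200 μM on day 5, and at 49.1, 57.3 and 54.4 CPM on day 10. All treated libraries were below both controls. The log2 fold change was -0.93 (SE 0.14, edgeR adjusted p = 5.26e-04), and it was -0.01 with A-5 and B-4 (70.9 and 53.9 CPM) as the controls. Mkl1 had -0.24 (SE 0.18, adjusted p = 0.308) and Mkl2 fell by 0.24 (SE 0.08, adjusted p = 0.0273) on the log2 scale in edgeR's test. Myocd, the cofactor that specifies smooth muscle, was at 0.105 ± 0.0771 CPM (SD, n = 6) in treated cells, at the level of about 3 counts, and did not pass the filter. Of the 7 genes tested in the list of SRF and its cofactors, 0 rose and 3 fell at an adjusted p under 0.05, against 22.6% and 20.8% of all genes, and with A-5 and B-4 as the controls 0 fell. Of the 6 genes whose promoter windows were searched, 3 held an exact CArG box: Actg1, which fell, and Myl9 and Vcl, which did not pass the test. The windows of Acta2 and Tpm1 held only matches with 1 mismatch. Whether SRF binds at the exact boxes or at these matches was not tested. No window was searched for Actb, Actg2, Tagln and Myh11, so these values do not show which of the 10 genes lack the box.

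Among 26 other contractile genes, 7 rose and 10 fell by edgeR's adjusted p, against 22.6% and 20.8% of all genes, with a median log2 fold change of -0.24. Without the day 10 control 5 rose and 4 fell, and without the day 5 control 5 rose and 12 fell. Past the fold limit, 5 rose and 1 fell. Among those averaging at least 5 CPM, the 4 with the largest changes all rose, with edgeR adjusted p-values from 3.54e-06 to 3.97e-05. They were Itga8 (integrin α8, 3.34, SE 0.20) and Mylk (myosin light chain kinase, which phosphorylates Myl9, 2.22, SE 0.14), then Pdlim5 (a filament scaffold, 1.48, SE 0.11) and Cnn3 (acidic calponin, 1.17, SE 0.11). Des (desmin), with a mean of 3.82 CPM, also rose past the limit (1.56, SE 0.33, edgeR adjusted p = 0.00421). The gene that fell past it was Cavin1 (-1.03, SE 0.14, edgeR adjusted p = 2.65e-04). Mylk went from a mean of 85.5 CPM at 0 μM to 400.2 ± 63.0 CPM (SD, n = 6). With A-5 and B-4 as the controls it had a log2 fold change of 0.41 and was not called (adjusted p = 0.273), as was the case for Pdlim5 and Cnn3, and 7 of the 26 rose and 1 fell.

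Of 21 genes for actin monomer binding and filament growth, 2 rose and 12 fell by edgeR's adjusted p, against 22.6% and 20.8% of all genes, with a median log2 fold change of -0.25. Tmsb10 (thymosin β10, which holds actin monomer) fell by 1.58 (SE 0.21, adjusted p = 2.69e-04) and Dstn (destrin, which severs filaments) by 1.04 (SE 0.12, adjusted p = 1.44e-04) on the log2 scale. Gsn (gelsolin, which caps and severs filaments) rose by 1.03 (SE 0.14, adjusted p = 3.16e-04). Without the day 5 control 1 rose and 8 fell, and without that of day 10 1 rose and 6 fell. With A-5 and B-4 as the controls 2 rose and 6 fell, and Dstn (adjusted p = 0.238) and Gsn (adjusted p = 0.377) were not called.

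Of 21 focal adhesion adaptors, the class that Vcl belongs to, 5 rose and 7 fell by edgeR's adjusted p, against 22.6% and 20.8% of all genes. Without the day 5 control 2 rose and 8 fell, and without that of day 10 2 rose and 4 fell. Tns1 (tensin 1, of mature adhesions) rose from a mean of 23.1 CPM to 1224 ± 376 CPM (SD, n = 6), a log2 fold change of 5.69 (SE 0.31, edgeR adjusted p = 2.14e-06). Zyx (zyxin, recruited to adhesions under tension) fell by 1.21 (SE 0.19, adjusted p = 7.39e-04) on the log2 scale. Library B-4 had 870 CPM of Tns1 and A-5 had 43.5 CPM, and neither Tns1 (adjusted p = 0.253) nor Zyx (-0.22, adjusted p = 0.536) was called by edgeR against them.

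Of 9 target genes of YAP and TAZ, coactivators that respond to cytoskeletal tension, 0 rose and 7 fell by edgeR's adjusted p, against 22.6% and 20.8% of all genes, with a median log2 fold change of -0.79. Ankrd1 fell by 1.996 on the log2 scale (SE 0.22, adjusted p = 9.99e-05) and Ctgf by 1.15 (SE 0.32, adjusted p = 0.0154). Without the day 10 control 2 of the 9 fell, and Ctgf was not called (-0.72, adjusted p = 0.253). With A-5 and B-4 as the controls, 1 rose (Ctgf, 2.34, adjusted p = 0.00731) and 0 fell, with a median of 0.35. Of 12 genes of TGF-β signalling, a classical inducer of Acta2 and Tagln, 4 rose and 3 fell, against the same shares of all genes (5 and 1 without the day 5 control, 2 and 2 without that of day 10), and the ligand Tgfb2 rose by 1.29 (SE 0.11, edgeR adjusted p = 1.91e-05) on the log2 scale, with an adjusted p under 0.05 in all 19 alternatives. Over all lists, 78 genes had an adjusted p under 0.05, and none of them changed sign with DESeq2, with DESeq2 size factors or with library totals in place of TMM. With library totals, 3 of the 78 no longer had an adjusted p under 0.05.

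**Figure D4:**
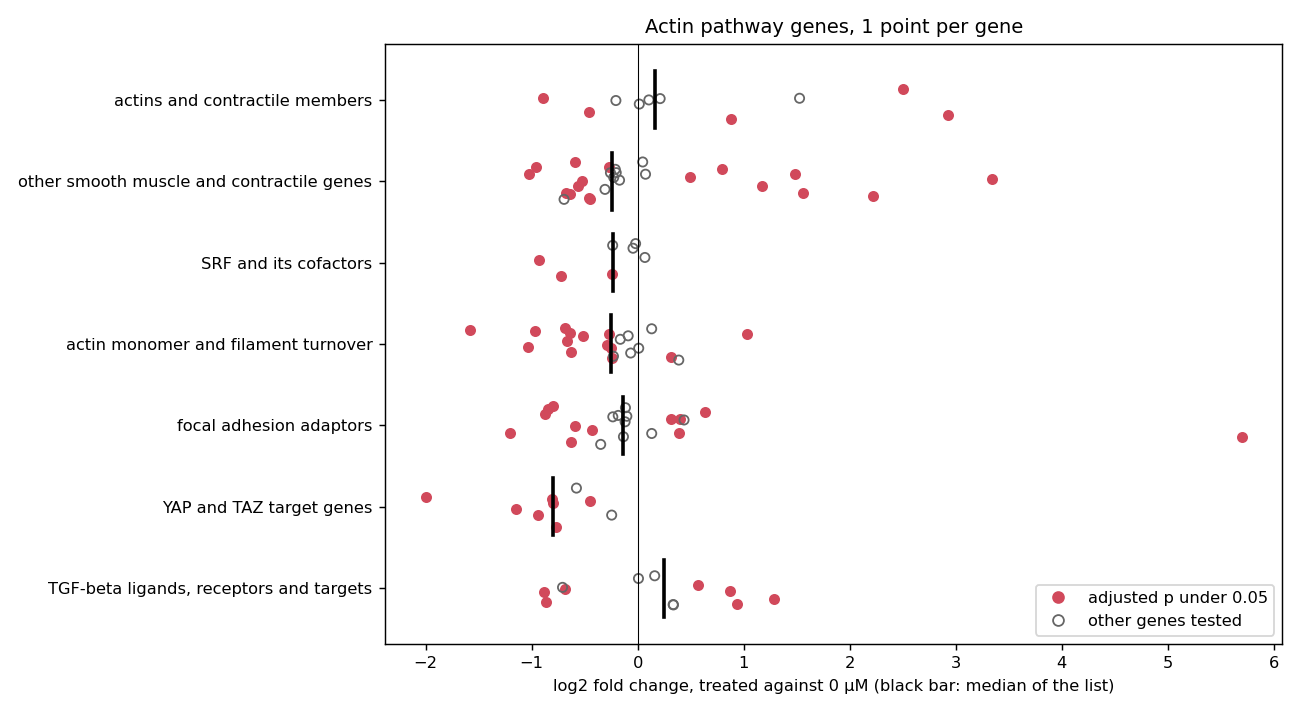
Log2 fold change of treated against 0 μM cells for the 10 actin and contractile genes and for 6 lists of related genes, 1 point per gene, filled where edgeR's adjusted p was under 0.05. The black bar is the list's median, which runs from -0.79 for YAP and TAZ targets to 0.25 for TGF-β genes. The vertical scatter within a row carries no value.

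Markers of other cell types were read beside these values. Their counts are by edgeR's adjusted p under 0.05, where 22.6% of all genes tested rose and 20.8% fell. With so few genes tested per list, no count was read as differing from these shares. Of 9 pericyte and smooth muscle cell markers, 5 were tested, 2 rose and 1 fell, and Kcnj8 was at 0 in all 10 libraries. Their summed level was 557 to 620 CPM at 0 μM and 489 to 683 CPM in treated libraries, so the groups overlapped. Itga8, given above, is among them, and Myh11 and Myocd stayed at trace level. Of 9 skeletal muscle markers 4 were tested and 1 rose, with a sum of 0.639 to 1.21 CPM at 0 μM and 1.52 to 3.01 CPM in treated libraries. The endothelial markers (4 of 5 tested, 3 rose) summed to 1.62 to 1.78 CPM at 0 μM and 5.47 to 8.08 CPM with treatment, and the adipocyte markers (4 of 6 tested, 0 called by edgeR) to 3.49 to 3.74 and 3.26 to 5.63 CPM. The macrophage markers (3 of 6 tested, 1 rose, Lyz2) summed to 17.8 to 30.4 and 31.7 to 62.6 CPM. Of the osteoblast markers, 4 of 9 rose and 2 fell, and Ibsp (bone sialoprotein) and Sp7 (osterix) went from means of 0.768 and 5.59 CPM to 382 ± 340 and 81.4 ± 34.7 CPM (SD, n = 6). Spp1 (osteopontin) fell by 0.56 (SE 0.18, edgeR adjusted p = 0.0325) and Dmp1 by 2.10 (SE 0.61, adjusted p = 0.0189) on the log2 scale. Dmp1 was scarce, at means of 2.98 CPM at 0 μM and 0.752 CPM in treated cells. Without the day 5 control the values of Spp1 and Dmp1 were -0.19 and -0.71. The part of these cell type markers in the changes of the 10 genes was not tested.

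The likeness of patterns over the 10 libraries, which share doses, days and treatment, is given as Pearson's r of log2 CPM and as a description only. Among the 10 genes, Actg2 and Tpm1 were the closest pair (r = 0.99), followed by Tagln and Myl9 (0.95), Acta2 and Myl9 (0.94) and Acta2 and Tagln (0.91). Without the untreated libraries, Acta2 and Myl9 stayed at 0.95, and the pairs of Tagln with Myl9 and with Acta2 went to 0.48 and 0.52. Actb and Actg1 had an r of 0.85, or 0.95 without the untreated libraries, and Actb and Myh11 had -0.77. Out of 10393 named genes that averaged 5 CPM or more, the closest to Acta2 were Dpysl3 (0.99), Eif3f (0.96), Cebpb (0.96), Palld (0.96) and Phf12 (0.96), and the closest to Actb were Adamtsl3 (0.98), Lgals9 (0.98), Epb41l4a (0.98), Plekho2 (0.98) and Parva (0.97). Palld encodes palladin, a scaffold of actin bundles, and Parva encodes α-parvin, an adaptor at focal adhesions.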

How the data were processed

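RNA of MC3T3-E1 cells was enriched on oligo(dT) beads, made into libraries with a TruSeq kit and sequenced by the authors. The authors deposited, for 10 libraries, read counts per gene without normalization and FPKM values per gene. Processing notes of the submitters name HISAT2 2.0.4 and GATK 3.2-2 without roles, and the counting program, its strand setting and the genome build are not given in the sources used here. Fold changes, p-values and pathway terms of the authors' own comparisons were not used. The paper's methods give 3 extractions per condition, while 1 library per dose and day was analysed.

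Counts were analysed with edgeR 4.0.16 (TMM, filterByExpr, quasi-likelihood test), and DESeq2 1.42.0 and limma 3.58.1 served as alternatives, in R 4.3.3. Tables and figures used pandas 2.3.3, numpy 2.4.6 and matplotlib 3.10.9. The fits were tested on simulated data. FPKM served for comparisons between genes and for limma on log2(FPKM + 1) and log2(FPKM + 0.1). Totals per library were 27108562 to 58218009 counts, and the biological coefficient of variation was 0.166. Positions are from GENCODE M21 (GRCm38), and windows from RefSeq (GRCm38.p6).

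The 10 genes and the lists were chosen with earlier results of these data known. Of each list, at most 4 called genes with the largest change and a mean of at least 5 CPM were named, besides the 10 genes, the striated actins, Srf, Mkl1, Mkl2 and Myocd. Beyond that rule, Des, Cavin1, Spp1, Dmp1, Tpm2, Tpm3 and Tpm4 were named after their values were seen. The result for 1 list of pathway genes is not reported here. Likeness was ranked by Pearson's r. Alternatives were other normalizations, filters, tools and fold limits, no day covariate, Ensembl genes only, and each library left out in turn. Others used A-5 and B-4 instead of or together with the 0 μM libraries, without day as a covariate. Dose as a block between the days was added after the data had been seen.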

Additional observations from a re-analysis of the deposited data

Results flagged for a closer look

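Acta2 and Myl9 were singled out because all 3 treated libraries lay above the 0 μM library on day 5 and all 3 lay below it on day 10. The difference between the days was -1.35 on the log2 scale for Acta2 (edgeR adjusted p = 0.402) and -0.81 for Myl9 (adjusted p = 0.524), so neither passed edgeR's test of the difference, while DESeq2 gave Acta2 an adjusted p of 0.00511. Each day had 1 library at 0 μM. Tpm1 was singled out because its highest treated library, 150 μM on day 10 with 1598 CPM, stood apart from the other 5: its gap to the next library was 0.692 of the whole range, above the limit of 0.625 for 6 libraries. Chance alone gives such a value in about 1 of 20 groups of like libraries, and all 10 genes were screened at both ends. The 6 libraries mix days and doses, so the limit is only a guide here.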

How the results depend on the processing

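With 1 library at 0 μM per day, most results moved with the controls used. The fits with the untreated libraries also had no day covariate, so they differ from the main fit in both respects. Actg2 and Tpm1 kept their direction and an adjusted p under 0.05 in all 19 alternatives. Myh11 was lost with the untreated libraries as the controls. Actb was also lost there (-0.18), with those libraries added (-0.56) and without the day 10 control (-0.53), Srf with those libraries in place (-0.01) or added (-0.52), Actg1 in 11 alternatives and Mkl2 in 10.

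Signs turned with the untreated libraries in place for Actg1 (0.28), Tagln (1.96), Mkl1 (0.27), Mkl2 (0.16), Acta1 (-0.49), Ankrd1 (0.47) and Ctgf (2.34), and with them added for Tagln (0.52) and Mkl1 (0.011). They turned with 1 library left out, over ranges of -0.49 to 0.85 for Acta2, -0.36 to 0.44 for Myl9, -0.038 to 0.48 for Vcl, -0.43 to 0.027 for Tagln and -0.50 to 0.041 for Mkl1, with the ends reached without the day 5 or day 10 control. Myl9 also turned with library totals (-0.049), limma on log2(FPKM + 1) (-0.018) or log2(FPKM + 0.1) (-0.01825), and without 100 μM (-0.06) or 200 μM (-0.01) of day 5. The cause was not tested.

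Of all genes, 2254 were higher and 1005 lower in treated cells. The counts were 1099 higher with at least 10 counts in every library, 3790 and 3490 with no fold limit, 1078 and 460 with the untreated libraries in place and 1286 and 453 with them added, 526 and 612 with limma on log2(FPKM + 1), and 1493 higher with Ensembl genes only. Of the 10 genes, 2 were higher and 0 lower. This became 1 higher with the filter of 10 counts, which removes Myh11 and Cnn1, and with limma at either pseudocount, 5 with the untreated libraries in place, and 2 lower with no fold limit. Leaving out single libraries gave 0 to 1 lower, the 1 without the day 5 control.

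For the difference between days (0 and 2 genes), DESeq2 gave 47 and 23, with 1 of the 10 genes (Acta2) lower, and leaving out libraries gave 0 to 5 and 0 to 4. For day 10 against day 5 in treated cells (141 and 26), no fold limit gave 314 and 117, library totals 74 lower, DESeq2 50 lower, and leaving out libraries 5 to 176 and 0 to 39, the lowest without 200 μM of day 5. For the dose trend (1 and 0), DESeq2 gave 1 lower and leaving out libraries 0 to 1 higher. Depth limits Myh11 and Cnn1, with at most 56 counts in a library. No paired analysis was possible because the labels give no replicate numbers, except by dose between the days, where 181 genes were higher and 30 lower with dose as a block, a setting added with the data already seen.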
